A study of Mus musculus with 3 samples.

Results

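The promoters described here are those of the mouse genes whose array name starts with Cd and a digit or with H2-, that is, the leukocyte CD antigens and the genes of the major histocompatibility complex (MHC). The rule matched 120 names, of which 116 had at least 3 probes and entered the analysis (87 Cd names and 29 H2 names) out of 16164 promoters measured in all. The names H2-DMb2 (2 probes) and H2-T9, H2-T10 and H2-T23 (1 probe each) had too few. Names are those of the array: 111 were current symbols and 5 were synonyms of 1 current gene (Cd244 is now Cd244a, Cd300d is Cd300c2, Cd97 is Adgre5, H2-Ke2 is Pfdn6, and H2-Tw3 is a synonym of H2-T3, which is also on the array under its own name). Not every name stands for a surface antigen: Cd2ap, Cd2bp2 and Cd3eap encode intracellular proteins, H2-Ke2 a prefoldin subunit and H2-Ke6 a steroid dehydrogenase.

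All 3 arrays were hybridised with chromatin DNA of C2C12, a mouse myoblast line, held in G0 by suspension culture in medium with 2% methylcellulose. Crosslinking was with 1% formaldehyde, stopped by 0.125 M glycine. DNA precipitated with an antibody against PRDM2 was on 2 arrays and DNA precipitated with an antibody against dimethylated lysine 9 of histone H3 (H3K9me2) on 1 array. The precipitated DNA (IP) was labelled with Cy5 and the matching input DNA with Cy3 throughout, so that dyes were never swapped. No array of a control antibody or of growing cells was used here. The question of the series was which promoters PRDM2, a methyltransferase of H3K9 with a PR domain, occupies in quiescent myoblasts. Whether separate cultures lie behind the PRDM2 pair is not stated in the labels. All p-values for PRDM2, alone or against H3K9me2, therefore rest on the spread of 2 arrays, which may be technical. Those for input rest on the spread of all 3 arrays, which may be technical too. H3K9me2 has no replicate, and its values are given without a test.

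MHC class I molecules present peptides from inside the cell to CD8 T cells and are made by nearly all nucleated cells, while class II molecules present peptides taken up from outside to CD4 T cells and are made mainly by antigen-presenting cells. Class II promoters carry conserved boxes that recruit RFX, CREB and NF-Y, the last through the Y box, and the coactivator CIITA assembles on them; class I promoters carry a related module. CD antigens are surface proteins catalogued on leukocytes, but several of them, among them the tetraspanins Cd9, Cd81 and Cd82 and also Cd34, Cd44 and Cd164, are also found on muscle precursor cells. The H2 genes are among the most polymorphic of the mouse genome. C2C12 descends from a C3H mouse and the reference genome from C57BL/6, which carry different H2 haplotypes, and the input signal of the H2 promoters is therefore shown beside the IP values.

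The Y box is shown because, among the members, H2 windows alone held it. RefSeq windows (GRCm38.p6) of 250 bases before to 50 after the start site were found for 84 of the 116 members and searched on both strands for CTGATTGG, which holds the motif CCAAT on its other strand. The Y box was present in 12 of 24 H2 windows, in 0 of 60 Cd windows and in 4.31% of all 27025 windows. CCAAT alone was in 79.2% of the H2 windows, 21.7% of the Cd windows and 37.9% of all windows. The H2-T3 window was counted under both H2-T3 and H2-Tw3 and held neither motif. These are matches of letters and not measured binding sites. The stretches below run along the gene, with the Y box in capitals. The first 4 are class II genes, which carried CTGATTGG on the gene strand. The others are nonclassical class I genes, which carried it on the opposite strand, and H2-K1, not printed, did so too.

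H2-Aa: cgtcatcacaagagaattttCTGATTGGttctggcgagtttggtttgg
H2-Eb1: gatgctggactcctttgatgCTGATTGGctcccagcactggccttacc
H2-Eb2: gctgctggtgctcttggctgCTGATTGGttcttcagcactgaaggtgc
H2-Oa: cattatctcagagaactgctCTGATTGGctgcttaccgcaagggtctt
H2-M1: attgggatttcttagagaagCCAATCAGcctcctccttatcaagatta
H2-M10.1: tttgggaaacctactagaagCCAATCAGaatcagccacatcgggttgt
H2-M10.3: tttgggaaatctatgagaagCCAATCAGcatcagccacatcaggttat
H2-M10.4: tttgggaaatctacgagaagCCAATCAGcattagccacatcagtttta
H2-M10.5: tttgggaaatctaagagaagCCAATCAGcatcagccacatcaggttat
H2-M10.6: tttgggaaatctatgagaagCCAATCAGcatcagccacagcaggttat
H2-M11: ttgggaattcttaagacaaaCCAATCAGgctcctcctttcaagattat

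These stretches lie on chromosome 17 of GRCm38.p6, for example H2-Aa at chr17:34287847-34287894 (minus strand), H2-Oa at chr17:34092313-34092360 (plus strand) and H2-M1 at chr17:36672246-36672293 (minus strand). The box began 46 to 103 bases before the start site in the 4 class II genes and 70 to 82 bases before it in the 7 class I genes printed. An array probe covered the box, wholly or in part, at 3 of the 12 genes, H2-Aa, H2-M10.1 and H2-M10.4.

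Values are log2 ratios of IP over input, averaged over the probes of a promoter, with the median probe of each array at 0. IP signal stood clear of background at 71.1% to 78.9% of the probes of an array and input signal at 92.8% to 99.02%. PRDM2 values followed the GC content of the probes (Spearman rho 0.58 and 0.65 on the 2 arrays and 0.13 for H3K9me2, over 16164 promoters that share arrays, as a description). Each value is therefore also given relative to promoters of like GC content, meaning minus the running median over the promoters nearest in GC. PRDM2 array 2 and the H3K9me2 array were scanned on the same day and PRDM2 array 1 on another.

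Across the family, PRDM2 was higher than the median probe at 46 of 116 promoters (39.7%), against 46.9% of all promoters, and lower at 3 (2.59%), against 1.08% (limma against 0, Benjamini-Hochberg adjusted over all promoters, p under 0.05). The family's median was 0.43 and that of all promoters 0.50, with median GC contents of 42.9% and 43.9%. Relative to like GC, 5 members were called higher (4.31%, against 2.57% of all promoters) and 4 lower (3.45%, against 2.02%). All 46 promoters called higher than the median probe were above 0 on both arrays. They were chosen on the mean of these arrays, so this is no separate check. Of the 46, 31 were above promoters of like GC on both arrays, a count drawn from the same values. The shares of the family lie near those of all promoters. The count against the median probe depends on the point taken as 0 and on the background: with the median promoter at 0, 14 members were higher and 21 lower, with loess 19 and 15, and with normexp background correction 0 of 116 members and 0 of 16164 promoters were called.

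**Figure D1:**
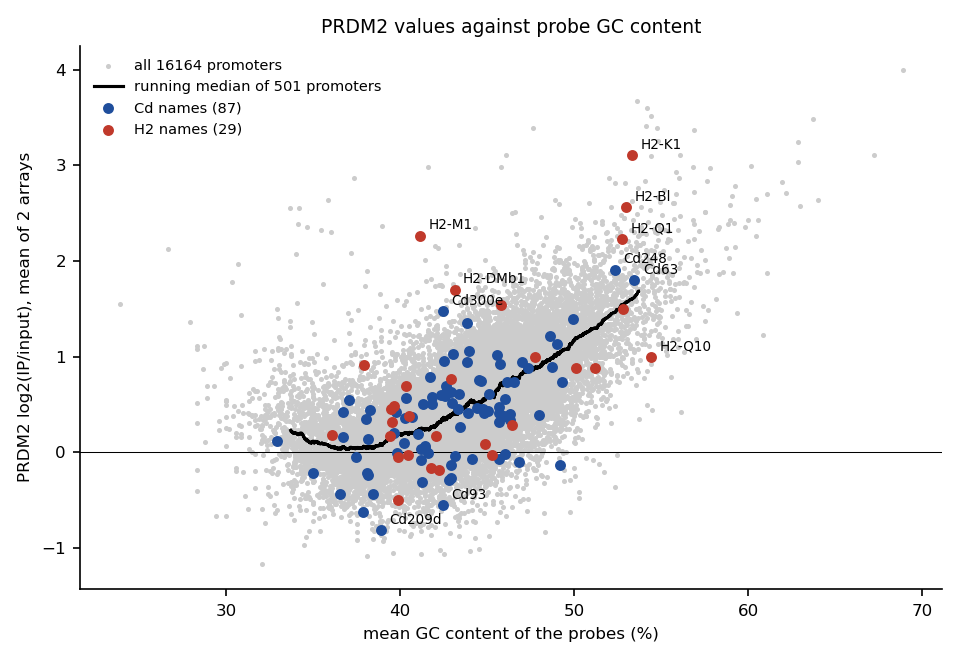
Mean PRDM2 log2(IP/input) of 2 arrays (y axis) against the mean GC content of the promoter's probes in percent (x axis). Grey points are all 16164 promoters, the line is their running median, blue points are the 87 Cd names and red points the 29 H2 names. H2-M1 stands far above the line at a GC content of 41.2%, while Cd63 and Cd248 have high values near the line.

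The 29 H2 promoters had a median PRDM2 value of 0.49, and 14 were called higher than the median probe (48.3%, beside 46.9% of all) and 0 lower (limma). Relative to like GC, 3 were called higher and 0 lower by limma, beside 2.57% and 2.02% of all promoters. Without adjustment, 8 were higher and 6 lower at a p under 0.05, beside 2165 and 1922 of all 16164. Their H3K9me2 values lay above promoters of like GC at 20 of 29, beside 50.1% of all promoters, with a median of 0.29 beside 0.00. After within-array loess this median was 0.08.

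Among class I genes, H2-K1, the only classical class I gene with enough probes, had PRDM2 values of 4.17 and 2.05 and an H3K9me2 value of 2.45. The H2-K1 values were the largest of the family on PRDM2 array 1 and on the mean of both arrays, where H2-K1 ranked 13 of 16164. Only 3 probes carry them (chr17:33610701-33611200 in the array's coordinates, whose genome build no source used here gives). The probe ratios disagreed between arrays: 1 probe read 6.47 on PRDM2 array 1 and 0.57 on array 2, and another read 3.56 and 3.79 with an input 2.52 below probes of like GC. H2-K1 exceeded promoters of like GC by 1.49 ± 0.40 (limma SE, n = 2), which did not pass (limma adjusted p = 0.0673). Its input was 0.63 below like GC.

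H2-Bl, a nonclassical class I name, had PRDM2 values of 3.09 and 2.04 and an H3K9me2 value of 0.66 over 4 usable probes. Both PRDM2 arrays were above the H3K9me2 array, as at 13771 of all 16164 promoters. H2-Bl was called higher than the median probe (limma adjusted p = 5.37e-05) and missed the threshold relative to like GC (1.00 ± 0.25, SE, n = 2, limma adjusted p = 0.0558). Input at H2-Bl was high, 1.22, 1.74 and 1.30 above like GC on the 3 arrays. After within-array loess H2-Bl stood at -0.02 against the median probe and at -0.52 relative to like GC, so that its direction turned with the normalization.

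In the Q region, H2-Q1 had PRDM2 values of 2.36 and 2.11 with H3K9me2 at 0.87, and H2-Q2 had 1.35 and 1.64 with H3K9me2 at 0.00. H2-Q10, which encodes a secreted class I molecule made in liver, had 1.39 and 0.60 with H3K9me2 at -0.27. All 3 were called higher than the median probe, but their probes were rich in G and C (52.8%, 52.8% and 54.4%), and relative to like GC they stood at 0.70, -0.04 and -0.69, none of them called. The H2-Q10 comparison is limited by its place at the sparse upper end of the GC range. With the GC trend removed per array, H2-Q10 stood at -0.62 against the median probe. Input was 1.18 below like GC at H2-Q1 (0.07 above when only probes with input well above background were kept) and 0.88 below at H2-Q2 but 1.21 above at H2-Q10.

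The M10 genes, whose class I molecules are expressed in the vomeronasal organ, had PRDM2 means near or below the median probe. Their means ran from -0.50 at H2-M10.5 (-0.47 and -0.53) through -0.18 at H2-M10.1, -0.16 at H2-M10.6 and -0.04 at H2-M10.2 to 0.17 at H2-M10.4 and 0.18 at H2-M10.3 (0.42 and -0.06). Their probes were poor in G and C, from 36.1% at H2-M10.3 to 42.3% at H2-M10.1. Relative to like GC the means ran from -0.66 at H2-M10.5 to 0.15 at H2-M10.3. None of the 6 was called on either PRDM2 scale. Of all promoters, 46.9% were called higher and 1.08% lower than the median probe, and 2.57% and 2.02% relative to like GC. At H2-M10.3 the PRDM2 arrays had 3 and 2 of 5 probes with a clear IP signal, and at H2-M10.5 both had 4 of 10. Of these genes, 5 carry the Y box printed above, and their H3K9me2 values ranged from 1.26 at H2-M10.3 to -1.31 at H2-M10.1. H2-M2, H2-M3, which presents formylated peptides, H2-M11 and H2-T3 had PRDM2 means of -0.02, 0.09, 0.32 and 0.17, none called. H2-Tw3 had 1.11 and 0.88 and was called higher than the median probe, though at -0.52 after loess. H2-T24 had 0.52 and 1.29 and was called higher than the median probe only (limma adjusted p = 0.00721).

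H2-M1, another M-region class I gene, had the highest H3K9me2 value of all 16164 promoters relative to like GC (3.35) and ranked 15 of 16164 for PRDM2 on the same scale. Its values were 2.52 and 2.02 for PRDM2 and 2.87 for H3K9me2. The PRDM2 excess over like GC was 2.05 ± 0.19 (SE, n = 2, limma adjusted p = 0.00431). These ratios stand on almost no input: the input signal was 3.93, 4.17 and 1.88 below like GC on the 3 arrays, the second lowest mean of all promoters. Of the 5 probes, 1, 3 and 5 had input well above background on the 3 arrays, and 1, 0 and 5 had such an IP signal, so that on the PRDM2 arrays nearly all of the IP signal and part of the input was not well above background. The IP signal itself was 1.71 and 2.29 below that of promoters of like GC on the PRDM2 arrays and 1.61 above it on the H3K9me2 array. The 10 promoters nearest on the chromosome had inputs between -0.31 and 0.93, so the low input was not shared by neighbours. With the deposited value table in place of the scanner signals the excess was 1.17 and was no longer called (limma adjusted p = 0.0727). The probes are printed because they carry this value, and whether C2C12 DNA has these sequences was not tested. They lie at chr17:36278913-36280217 in the array's coordinates.

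H2-M1 probe 1: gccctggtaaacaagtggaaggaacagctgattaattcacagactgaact
H2-M1 probe 2: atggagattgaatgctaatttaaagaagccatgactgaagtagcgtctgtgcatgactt
H2-M1 probe 3: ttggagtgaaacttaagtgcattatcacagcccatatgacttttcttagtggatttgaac
H2-M1 probe 4: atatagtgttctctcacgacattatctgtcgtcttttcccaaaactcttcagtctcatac
H2-M1 probe 5: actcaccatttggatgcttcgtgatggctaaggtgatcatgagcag

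The mean input of these 5 probes over the 3 arrays less that of probes with a similar GC content was -3.83, -2.90, -4.17, -3.03 and -3.67 on the log2 scale. All 5 were low, and 3 of them by more than 2 on every array. Among all H2 probes, 9 of 281 (3.20%) were this low on all 3 arrays, beside 2.32% of all named probes and 0.984% of the Cd probes. Conversely 4.64% of H2 probes were more than 2 above like GC on all 3 arrays, beside 2.09% of all.

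**Figure D2:**
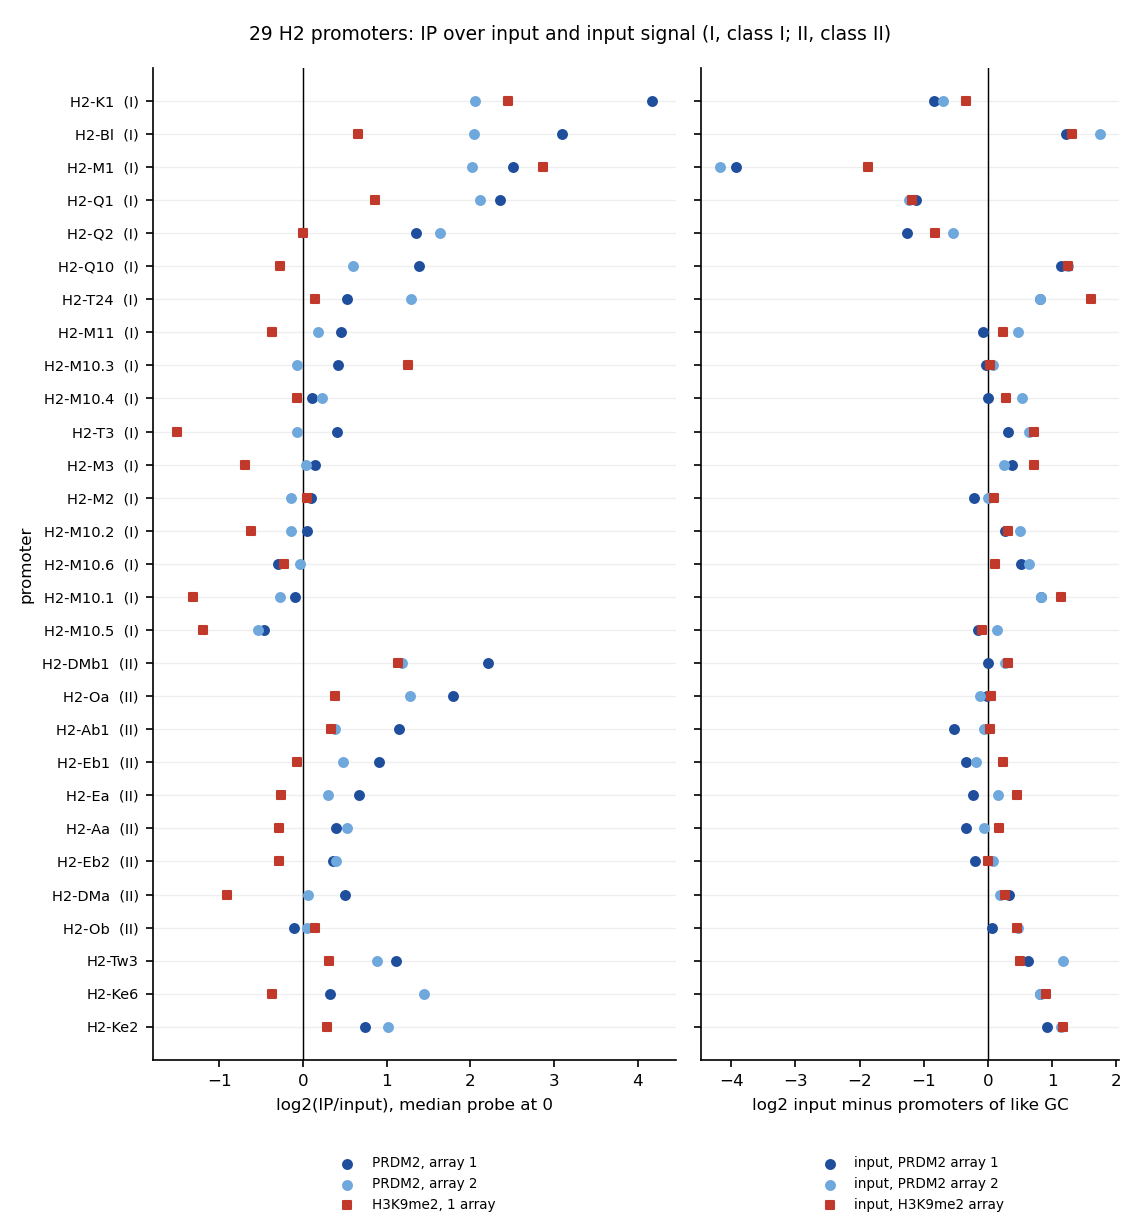
Left, log2(IP/input) of the 29 H2 promoters on PRDM2 array 1, PRDM2 array 2 and the H3K9me2 array, each point 1 array and 0 the median probe. Right, log2 input signal of the same promoters minus promoters of like GC on the 3 arrays. Class I, class II and other names are sorted by PRDM2 mean within each class. The low input of H2-M1 on all 3 arrays and the high ratios of H2-K1 and H2-Bl stand apart.

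In the class II group PRDM2 and H3K9me2 lay mostly above promoters of like GC. Of its 10 promoters (9 H2 names and Cd74), 8 lay above promoters of like GC on both PRDM2 arrays, beside 34.6% of all promoters, and 9 lay above like GC for H3K9me2. The group's medians relative to like GC were 0.35 for PRDM2 and 0.45 for H3K9me2, and its input median was 0.05. Under the alternatives run the PRDM2 median lay between 0.15 (normexp background correction) and 0.44 (medians over probes), and the H3K9me2 median between 0.22 (loess) and 0.59 (medians over probes). Of the 10, 5 were called higher than the median probe (50%, beside 46.9% of all promoters, so near the background) and 2 relative to like GC, beside 2.57% of all.

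H2-DMb1 encodes the beta chain of H2-DM, which loads peptides onto class II molecules. Its PRDM2 values were 2.21 and 1.19 and its H3K9me2 value 1.14. PRDM2 exceeded like GC by 1.32 ± 0.23 (SE, n = 2, limma adjusted p = 0.029), and H3K9me2 by 1.61, in the 99.3 percentile of all promoters. Input at H2-DMb1 was within 0.31 of like GC on each array as a mean over 7 probes, but single probes departed from it. Of the 7, 2 exceeded 2 on both PRDM2 arrays. The first read 4.8 and 4.4, with input 2.58 above probes of like GC. The other read 4.0 and 2.4, with input 1.96 below.

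H2-Oa, the alpha chain of H2-DO, which restrains H2-DM, had PRDM2 values of 1.79 and 1.28 and an H3K9me2 value of 0.38. Both PRDM2 arrays were above the H3K9me2 array, as at 13771 of all 16164 promoters. The difference of means was 1.15, beside a median of 0.85 over all promoters. The excess over like GC was 0.83 ± 0.19 (SE, n = 2, limma adjusted p = 0.048), with input within 0.12 of like GC. Their partner chains differed from them: H2-DMa had 0.51 and 0.06 with H3K9me2 at -0.91, and H2-Ob had -0.11 and 0.05 with H3K9me2 at 0.15, both below like GC for PRDM2 on both arrays and not called.

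The peptide-presenting class II chains had smaller PRDM2 values than H2-DMb1 and H2-Oa, though larger means than H2-DMa and H2-Ob. H2-Ab1 had 1.14 and 0.39 and H2-Eb1 0.91 and 0.48, and both were called higher than the median probe. H2-Aa had 0.39 and 0.52, H2-Ea 0.67 and 0.30 and H2-Eb2 0.36 and 0.40, which were not called on either scale. Cd74, the invariant chain that escorts class II molecules, had 1.36 and 0.56 with H3K9me2 at 0.14 and was called higher than the median probe only. The H3K9me2 values of the 5 presenting chains ran from -0.28 to 0.33.

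The 2 H2 names of other function, H2-Ke2 (0.74 and 1.02) and H2-Ke6 (0.32 and 1.45), were called higher than the median probe, with GC contents of 51.2% and 50.1%. With the GC trend removed per array they stood at -0.27 and -0.05, and their input was 1.08 and 0.84 above like GC.

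Of 29 antigen presentation genes outside the family, such as the peptide transporter, proteasome and NF-Y genes, 16 were called higher than the median probe (55.2%, beside 46.9% of all promoters) and 0 lower, beside 1.08%. On the like-GC scale 0 were called higher or lower, beside 2.57% and 2.02% of all (limma; at an unadjusted p under 0.05, 2 were higher and 5 lower). Nfyb, a subunit of NF-Y, had PRDM2 values of 1.44 and 1.25, and Nfyc, another, 1.24 and 0.95. Calr, an endoplasmic reticulum chaperone of class I assembly, had 0.27 and -0.15 and Tapbp, which bridges class I molecules to the peptide transporter, 0.06 and 0.66.

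**Figure D3:**
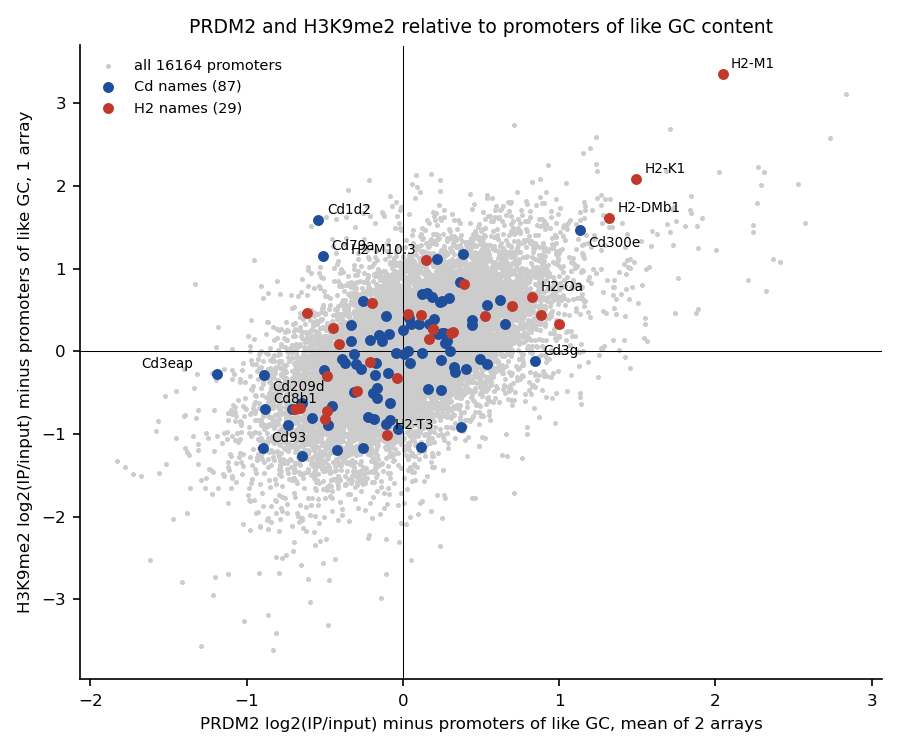
PRDM2 (x axis, mean of 2 arrays) against H3K9me2 (y axis, 1 array), both as log2(IP/input) minus promoters of like GC. Grey points are all 16164 promoters, blue the 87 Cd names and red the 29 H2 names. H2-M1, H2-K1, H2-DMb1 and Cd300e lie at the upper right, and Cd1d2 and Cd79a lie above 1 for H3K9me2 but below 0 for PRDM2.

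PRDM2 and H3K9me2 relative to like GC were related across promoters in the family and over all promoters (Spearman rho 0.56 over 116 members and 0.56 over 16164 promoters, a description, since the points share arrays and neighbouring probes). H3K9me2 exceeded like GC by more than 1 at 9 members, where 4.82% of all promoters did: H2-M1, H2-K1, H2-DMb1, H2-M10.3, Cd1d2, Cd300e, Cd79a, Cd300d and Cd84. It lay more than 1 below like GC at 6, where 5.57% of all promoters did: Cd200, Cd244, Cd247, Cd80, Cd93 and H2-T3. These counts were 2 and 0 with normexp, 5 and 6 with loess and 11 and 12 with medians over probes. Cd84, Cd80, Cd8b1 and Cd3eap are named because they fell into such short lists and so were chosen after their values were seen.

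The 87 Cd promoters had a median PRDM2 value of 0.42, with 32 called higher than the median probe (36.8%, beside 46.9% of all promoters) and 3 lower (3.45%, beside 1.08%). Against promoters of like GC, 2 were called higher (2.3%, beside 2.57%) and 4 lower (4.6%, beside 2.02%). The highest means were at Cd248 and Cd63, with GC contents of 52.4% and 53.5%. Cd248, endosialin of stromal cells, had 2.17 and 1.65 with H3K9me2 at 0.67, and 8 of its 18 probes exceeded 2 on both PRDM2 arrays. Cd63, a tetraspanin of late endosomes, had 1.81 and 1.79 with H3K9me2 at -0.05. Both were called higher than the median probe and neither relative to like GC, where they stood at 0.44 and 0.16. Cd83, a marker of mature dendritic cells, Cd151, a tetraspanin that binds integrins, and Cd22, an inhibitory B cell lectin, had means of 1.40, 1.22 and 1.06. They were called against the median probe only, as was Cd320, a receptor for transcobalamin, at 1.03.

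Cd300e, an activating receptor of monocytes, was one of the 2 Cd promoters called higher relative to like GC. Its PRDM2 values were 1.67 and 1.28 and its H3K9me2 value 1.00. The excess over like GC was 1.13 ± 0.18 (SE, n = 2, limma adjusted p = 0.0246), and for H3K9me2 it was 1.46. With normexp background correction it was 0.40 and was not called (limma adjusted p = 0.135). Input at Cd300e was 0.38 above like GC. Of its 11 probes, 2 exceeded 2 on both PRDM2 arrays. The first read 5.75 and 5.16. The other read 3.07 and 3.20, with input 3.57 above probes of like GC. Cd300d, of the same receptor family, had 1.15 and 0.69 with H3K9me2 at 0.82, and Cd300lg had 0.55 and 0.65 with H3K9me2 at -0.39, neither called relative to like GC.

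Cd3g, a chain of the T cell receptor complex, was the other one called. Its PRDM2 values were 1.39 and 1.32 and its H3K9me2 value -0.52, and the excess over like GC was 0.85 ± 0.18 (SE, n = 2, limma adjusted p = 0.0429). Only 3 probes carry it, reading -0.62, -0.41 and 5.18 on PRDM2 array 1 and -0.60, 2.52 and 2.04 on array 2, so the means agreed while the probes did not. Cd3e, another chain of the complex, had 0.07 and 0.01 with H3K9me2 at -0.98, and Cd247, the zeta chain, -0.20 and -0.34 with H3K9me2 at -1.71, the lowest of the Cd promoters.

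At the low end, Cd209d, a C-type lectin related to DC-SIGN, had PRDM2 values of -0.57 and -1.06, Cd226, an activating receptor of NK and T cells, -0.54 and -0.71, and Cd93, a C-type lectin domain receptor of endothelium and early haematopoietic cells, -0.43 and -0.67. These 3 were called lower than the median probe (limma adjusted p = 0.00856, 0.0237 and 0.041). Relative to like GC, Cd209d stood at -0.89, Cd93 at -0.89, Cd8b1, the beta chain of CD8, at -0.88 and Cd3eap, an RNA polymerase I subunit, at -1.19, all called lower (limma adjusted p = 0.0419, 0.0388, 0.0415 and 0.0377). At Cd3eap, with 4 probes, the 2 arrays disagreed in sign against the median probe (0.37 and -0.64). Relative to like GC they read -0.75 and -1.63. The H3K9me2 value was -1.63 at Cd93 and -0.74 at Cd209d. Cd200r1 and Cd53 had means of -0.44 and -0.43, not called.

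All 9 calls relative to like GC were lost with eBayes fitted with an intensity trend and with medians in place of means over probes. These alternatives called 0 of all 16164 promoters. With within-array loess 13 members were called higher and 22 lower.

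The 6 antigens named above for muscle precursor cells had PRDM2 means from -0.07 to 0.61. Cd34, a sialomucin of satellite and haematopoietic stem cells, had 0.13 and -0.14, and Cd44, the hyaluronan receptor, 0.33 and -0.13. The tetraspanins Cd9, Cd81 and Cd82 had means of 0.41, -0.07 and 0.38, while over all 7 tetraspanins the means ran from -0.43 at Cd53 to 1.80 at Cd63. Cd164, a sialomucin, had 0.60 and 0.62. Of the 6, Cd164 alone was called higher than the median probe (limma adjusted p = 0.0245), as were 46.9% of all promoters. Relative to like GC Cd164 stood at 0.004 and was not called. Its input was 0.81 below like GC, and with the GC trend removed per array its PRDM2 value was -0.07. Cd4, the coreceptor of helper T cells, had 0.54 and 0.21, Cd8a, the alpha chain of CD8, 1.36 and 0.04, and Cd14, the lipopolysaccharide coreceptor of monocytes, 0.71 and 0.25. These 3 were not called, while other leukocyte antigens such as Cd3g and Cd22 were.

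**Figure D4:**
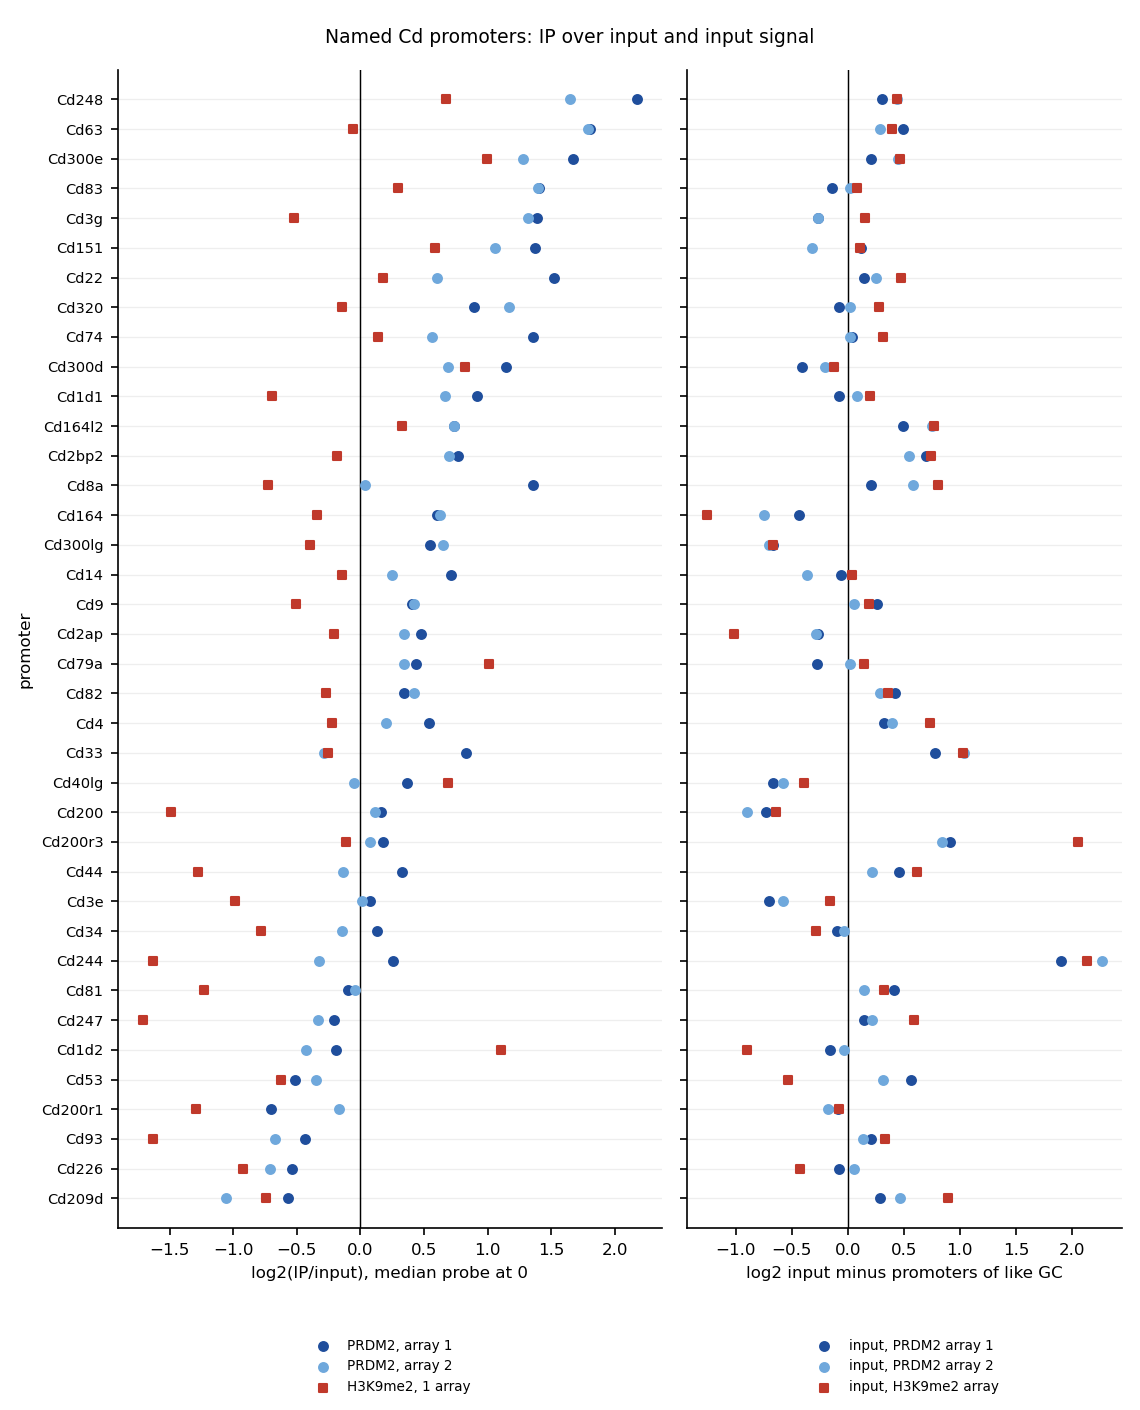
Left, log2(IP/input) of the named Cd promoters on PRDM2 array 1, PRDM2 array 2 and the H3K9me2 array, sorted by PRDM2 mean, with the median probe at 0. Right, their log2 input minus promoters of like GC on the 3 arrays. Cd1d2, Cd79a and Cd40lg have H3K9me2 to the right of both PRDM2 arrays, and Cd244 has the highest input.

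By role, against the median probe, 6 of 23 T and NK antigens, 6 of 10 B cell antigens, 6 of 20 myeloid and dendritic antigens, 2 of 6 costimulatory ligands, 3 of 7 tetraspanins and 6 of 15 widely expressed antigens were called higher. These are 26.1%, 60%, 30%, 33.3%, 42.9% and 40% of each group, beside 46.9% of all promoters, which the B cell antigens alone exceed. The median PRDM2 values of these 6 groups relative to like GC lay between -0.27 for tetraspanins and 0.15 for B cell antigens. For H3K9me2 relative to like GC the medians were -0.77 for costimulatory ligands, -0.26 for tetraspanins, -0.19 for T and NK antigens and 0.24 for B cell antigens. Those of the widely expressed and of the myeloid and dendritic antigens were -0.03 and -0.002. With normexp background correction the costimulatory median was -0.02. Of 26 leukocyte surface genes without a Cd name, 9 were called higher (34.6%, beside 46.9% of all promoters) and 1 lower (3.85%, beside 1.08%) than the median probe. A further 44 Cd promoters, whose values are not given one by one, had PRDM2 means from -0.28 to 1.13 and H3K9me2 values from -1.42 to 0.53, and 16 of them were called higher than the median probe.

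PRDM2 exceeded H3K9me2 at 42 of 116 members (36.2%), against 41.1% of all promoters, and lay below it at 2 (1.72%), against 1.6% (limma difference over all 3 arrays, the lone H3K9me2 array being assumed to vary as the PRDM2 pair). All 42 had PRDM2 array 2 above the H3K9me2 array, with which it shares a scan day. They were chosen on a mean that holds array 2, so this sign is no separate check. The median difference was 1.08 for array 2 and 1.38 for array 1, and a part of the scan day was not tested. On values relative to like GC, the limma difference between PRDM2 and H3K9me2 called 0 of 116 members and 0 of 16164 promoters. It likewise called none with normexp background correction, and with loess 4 members were higher and 6 lower.

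The CD1d pair, which presents lipids to NKT cells, split: Cd1d1 had PRDM2 at 0.92 and 0.67 with H3K9me2 at -0.69, and Cd1d2 had PRDM2 at -0.19 and -0.43 with H3K9me2 at 1.1. PRDM2 was 1.48 above H3K9me2 at Cd1d1 and 1.42 below it at Cd1d2 (limma adjusted p = 0.0148 and 0.0161). Over all promoters the median difference was 0.85, with 41.1% called higher and 1.6% lower, so the sign at Cd1d1 was the common one. The pair is closely related in sequence, and 1 probe of each shares a stretch of 28 bases, in capitals, read on opposite strands.

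Cd1d1 probe: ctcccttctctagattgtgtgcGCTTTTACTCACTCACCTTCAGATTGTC
Cd1d2 probe: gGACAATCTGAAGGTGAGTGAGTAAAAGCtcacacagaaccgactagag

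Cd1d2 has 5 probes and Cd1d1 13. Without the probes that share such stretches, no count of calls for PRDM2 in the family changed. The other promoter called below H3K9me2 was H2-M10.3. Cd79a, a chain of the B cell receptor, had PRDM2 at 0.44 and 0.35 with H3K9me2 at 1.01, and Cd40lg, the CD40 ligand, 0.37 and -0.05 with H3K9me2 at 0.69, neither difference called. At Cd40lg, 5 of 18 probes had a clear IP signal on each PRDM2 array, beside 13 on the H3K9me2 array.

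Input relative to like GC was called high at 39 of 116 members (33.6%, against 25.6% of all promoters) and low at 12, against 27.1% of all. Without the H3K9me2 array 19 were low, and without PRDM2 array 1 it was 7. Among H2 names 13 of 29 were high and 4 low, and the low ones were H2-M1, H2-Q1, H2-Q2 and H2-K1, all class I. More class I promoters were high than low, since 8 of the 16 nonclassical ones were called high and 3 low. Both taken relative to like GC, IP over input and input were inversely related across the H2 promoters (Spearman rho -0.45, -0.37 and -0.44 on the 3 arrays, n = 29, and -0.39, -0.30 and -0.38 without H2-M1), beside -0.18, -0.29 and -0.31 over all 16164. These are descriptions, because input is the denominator of the ratio.

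The highest input was at Cd244, an NK cell receptor of the SLAM family, 1.90, 2.27 and 2.13 above like GC (limma adjusted p = 0.000318). Its PRDM2 values were 0.25 and -0.33 and its H3K9me2 value -1.63. Cd244 lay above 99.97% of all promoters for input, and the highest of its 10 nearest neighbours stood at 1.81. Cd200r3, Cd33, Cd164l2 and Cd2bp2 followed among the Cd promoters with means of 1.27, 0.95, 0.67 and 0.66. The lowest Cd inputs after Cd164 were Cd200 (0.76 below), Cd300lg (0.68 below), Cd40lg (0.54 below) and Cd2ap (0.52 below). The 10 neighbours of Cd40lg on the X chromosome had a median of -0.90, while the low H2-K1, H2-Q1 and H2-Q2 had neighbours with medians of 0.29, 0.28 and 0.28. H2-Q1 and H2-Q2 are neighbours of each other, and each was the lowest neighbour of the other, at -1.18 and -0.88. Of the 46 promoters with PRDM2 above the median probe, 7 had low and 15 high input. The part of input in their ratios was not tested.

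Finally, 63 members and 9341 other promoters could be aligned on their RefSeq start site through a probe found in the RefSeq window. In the 500 bp centred on the start site, PRDM2 averaged 0.67 and 0.65 over the 63 members on the 2 arrays, and 1.31 and 1.30 over the others. Farther out, 1000 bp upstream, the members had 0.65 and 0.23 and the others 0.37 and 0.14. Only 46 members and 7502 others had probes in that bin, so the 2 bins hold different sets of promoters. The difference at the start site went with GC content, 46.2% in the members' probes there and 51.1% in the others', and was not tested. H3K9me2 averaged -0.05 at the members' start sites and 0.22 at the others'.

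**Figure D5:**
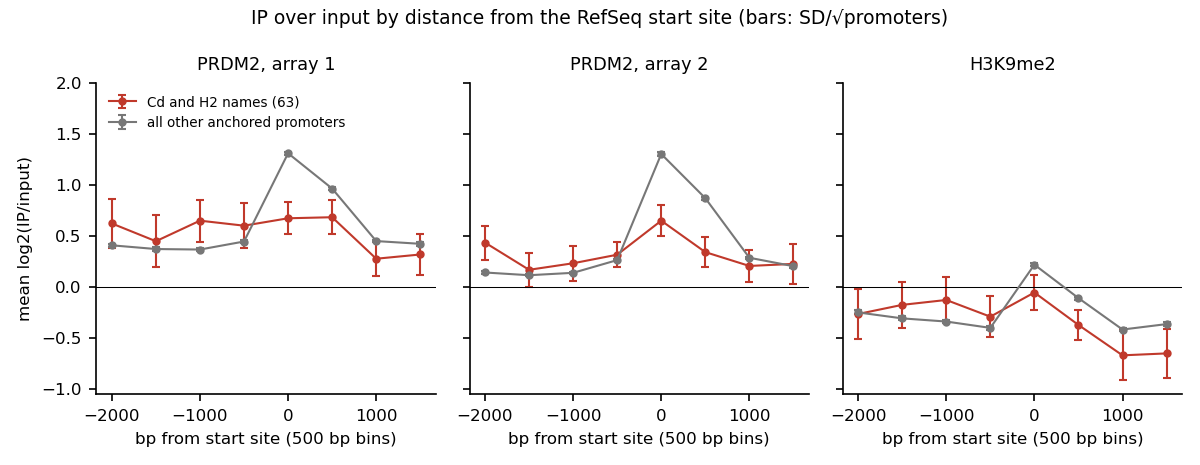
Mean log2(IP/input) in 500 bp bins by distance from the RefSeq start site (x axis, bp, negative upstream), for 63 Cd and H2 promoters in red and all other aligned promoters in grey, on PRDM2 array 1, PRDM2 array 2 and the H3K9me2 array. Bins away from the start site hold fewer promoters, down to 36 of the 63 members. Bars are the SD over promoters divided by the square root of their number, and promoters are not replicates. The peak of the other promoters at the start site, 1.31 and 1.30 for PRDM2, is 0.67 and 0.65 in the members.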

How the data were processed

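Chromatin DNA of G0-arrested C2C12 myoblasts was measured on 3 Agilent 2-colour promoter arrays (2 PRDM2, 1 H3K9me2). Per the file headers, Feature Extraction 10.5.1.1 produced the deposited intensity values, background-subtracted against negative-control spots, detrended and linearly dye-normalized, with their log10 ratio of red over green and other 0 or 1 flags per spot. The deposited value table holds log2 ratios whose centring is not stated. Its columns correlated with the scanner ratios at r = 0.964, 0.941 and 0.973 and had medians of 0.124, 0.103 and 0.278, so red over green is its direction. No source used here gives the build of the probe coordinates.

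Of 237203 probes, 231427 carried a gene name. Control spots and outlier spots (773, 107 and 218) were left out. The log2 ratio of the processed signals was centred on each array's median probe (-0.92, -0.80 and -0.27 before centring), and probes of 1 name were averaged, split at gaps over 10000 bp, where at least 3 were usable on every array. Like-GC values subtract the running median of the promoters nearest in GC content. limma 3.58.1 (R 4.3.3; lmFit, eBayes) was fitted over all 16164 promoters, with Benjamini-Hochberg adjustment and a threshold of 0.05. The fits were tested on simulated data. Precision is limited by the number of arrays. The alternatives were normexp background correction (offset 50), loess, removal of the GC trend, the median promoter as 0, medians over probes, filters on probes, the deposited value table, a variance trend, other windows and arrays left out.

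The text names every H2 promoter and, of the Cd promoters, the 8 highest and 6 lowest PRDM2 means with 1 sign relative to like GC, the 5 highest and 3 lowest H3K9me2 values, the 3 largest differences each way, the 5 highest and 5 lowest inputs and 12 fixed names, of which 1 is not reported here. Of the antigen presentation list, 4 are named by size. The members and lists were chosen with earlier results of these data known. Sequences are from RefSeq (GRCm38.p6) or the array's probes.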

Additional observations from a re-analysis of the deposited data

Results flagged for a closer look

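The difference between PRDM2 and H3K9me2 was past the threshold (limma over all 3 arrays, adjusted p under 0.05) at 32 of the promoters named, 29 of them members of the family, on the log2 scale and with PRDM2 counted as positive. Among the H2 names it was 1.90 at H2-Bl, 1.67 at H2-T3, 1.49 at H2-Q2, 1.37 at H2-Q1, 1.27 at H2-Q10, 1.25 at H2-Ke6, 1.19 at H2-DMa, 1.15 at H2-Oa, 1.13 at H2-M10.1 and -1.08 at H2-M10.3. Among T and NK cell antigens it was 1.87 at Cd3g, 1.59 at Cd244, 1.44 at Cd247, 1.42 at Cd8a and 1.03 at Cd3e. Among tetraspanins it was 1.85 at Cd63, 1.16 at Cd81 and 0.92 at Cd9. The CD1d pair had opposite signs, 1.48 at Cd1d1 and -1.42 at Cd1d2. The other Cd promoters were Cd200 (1.63), Cd80 (1.27), Cd44 (1.37), Cd248 (1.24), Cd320 (1.17), Cd83 (1.1), Cd93 (1.08), Cd300lg (0.99) and Cd164 (0.96). At Cd200, 6 and 4 of 11 probes had a clear IP signal on the PRDM2 arrays and 4 on the H3K9me2 array. Outside the family it was 1.35 at Tapbp, 1.29 at Nfyb and 1.05 at Nfyc. Of all 16164 promoters, 41.1% were called higher and 1.6% lower in the same test. None of the members was called when the difference was taken on values relative to like GC, by limma over the same 3 arrays.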

How the results depend on the processing

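Every alternative below was planned except the one without probes that share a stretch of 25 bases with another probe, which was chosen after seeing the data because no probe sequence occurs more than once on the array and no genome was used. It moved no count of PRDM2 calls. Members with PRDM2 above the median probe numbered 46, and 0 with normexp, 19 with loess, 30 with the GC trend removed, 14 with the median promoter as 0 and 7 with medians over probes. Those below it numbered 3, and 0 with normexp, 15 with loess, 21 with the median promoter as 0, 0 with medians over probes, 6 with the value table and 6 with a variance trend. Relative to like GC, 5 were higher, and 13 with loess, 0 with medians over probes, 9 with a narrower and with a wider like-GC window and 0 with a variance trend, while 4 were lower, and 9 with normexp, 22 with loess, 0 with medians over probes, 7 with the wider window and 0 with a variance trend. All 9 calls were kept with both other windows, 7 with loess and 4 with normexp. PRDM2 exceeded H3K9me2 at 42, and at 0 with normexp, 4 with loess, 7 with the GC trend removed, 0 with the median promoter as 0, 0 with medians over probes, 22 with the value table and 0 relative to like GC, and lay below it at 2, and at 0 with normexp, 6 with loess, 0 with medians over probes, 1 with probes well above background and 0 relative to like GC. H3K9me2 relative to like GC was above 1 at 9, and at 2 with normexp and 5 with loess, and below -1 at 6, and at 0 with normexp and 12 with medians over probes. Low input was called at 12, and at 7 to 19 with 1 array left out (7 without PRDM2 array 1 and 19 without the H3K9me2 array), and high input at 39, and at 26 to 41.

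Directions called under either setting turned as follows. PRDM2 against the median probe was negative at H2-Bl (loess -0.025), H2-Ke2 (normexp -0.45, loess -0.87, GC trend removed -0.27), H2-Ke6 (-0.37, -0.59 and -0.053), H2-Q10 (-0.26, -0.92 and -0.62), H2-Tw3 (loess -0.52), Cd33 (loess -0.77), Cd164l2 (normexp -0.31, loess -0.37), Cd2bp2 (normexp -0.068, loess -0.37), Cd164 (GC trend removed -0.068) and Cd300lg (medians over probes -0.050). Relative to like GC, loess turned H2-Bl (-0.52), H2-Q2 (0.49) and H2-Tw3 (-0.64). With normexp, PRDM2 minus H3K9me2 turned at H2-Bl (-0.40), H2-DMa (-0.31), H2-Ke6 (-1.18), H2-M10.1 (-0.58), H2-M10.3 (0.010), H2-Oa (-0.36), H2-Q1 (-0.38), H2-Q10 (-1.12), H2-Q2 (-0.27), H2-T3 (-0.40), Cd248 (-0.83), Cd63 (-0.52), Cd83 (-0.66), Cd3g (-0.046), Cd320 (-0.41), Cd93 (-0.27), Cd247 (-0.16), Cd244 (-1.14), Cd164 (-0.088), Cd44 (-0.20), Cd9 (-0.59), Cd81 (-0.21), Cd8a (-0.15), Cd3e (-0.019), Tapbp (-0.60) and Nfyc (-0.41). This difference also turned with loess at H2-M10.6 (-0.90), with medians over probes at Cd320 (-0.42) and Cd9 (-0.029), and relative to like GC at Cd9 (-0.050). Input relative to like GC turned at H2-Q1 with probes well above background (0.066) and with medians over probes at Cd22 (-0.022) and Cd81 (-0.027). The cause of these changes was not tested. Of the other values of named promoters and list medians, 3478 kept their side of the threshold or, with no test, moved by less than the spread of the arrays, and 390 of these changed sign. Another 409 moved by more than that spread, 94 of them with a change of sign. The promoters among these sign changes were called under neither setting. A further 337 values were no longer called and 107 became called, without a change of sign. With the median promoter as 0, the median PRDM2 values of the family, the H2 names and the Cd names turned to -0.076, -0.013 and -0.085, and with medians over probes that of the Cd names was -0.024.

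No paired analysis was possible because PRDM2 and H3K9me2 share 1 replicate number only. Leaving out a PRDM2 array left no residual degrees of freedom for the PRDM2 tests, so those settings gave values only. At 10 members most IP probes were not well above background on a PRDM2 array. Of the promoters named, these were Cd200, Cd200r1, Cd40lg, H2-Eb2, H2-M1, H2-M10.3 and H2-M10.5.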
